A study of Mus musculus with 8 samples.

Results

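The genes described here are 33 mouse genes of the heat shock response, the unfolded protein response and the integrated stress response, taken by gene symbol and grouped by the compartment in which their proteins work. The deposited normalized table of 16418 genes holds 31 of them, and all 31 had enough reads to be tested. The other 2, Asns and Chac1, are described from the count table. The groups are 8 cytosolic chaperones, 2 subunits of the mitochondrial chaperonin, 14 chaperones and cofactors of the endoplasmic reticulum (ER), 3 genes of ER-associated degradation, and 6 stress transcription factors and integrated stress response genes.

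The cells were naive CD4 T cells of mouse spleen and lymph node, sorted as CD3+CD4+CD25-CD62L+ cells with low or no CD44, and their polyadenylated RNA was sequenced. The 4 KO samples came from tamoxifen-treated Satb1fl/fl x CD4-CreERT2wt/+ mice, and the 4 WT samples from untreated mice of that same genotype. Both groups thus carry the floxed Satb1 alleles and the tamoxifen-dependent Cre recombinase under CD4 control, and the drug and the deletion cannot be told apart. The labels state neither the age of the mice nor whether each sample is 1 animal, so p-values reflect the variation among these samples alone, and part of it may be technical.

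Values per library are given in the order Sample_2907_KO, Sample_2908_KO, Sample_2909_KO and Sample_2910_KO for KO, and Sample_2911_WT, Sample_2913_WT, Sample_2914_WT and Sample_2915_WT for WT. Libraries held 7544075 to 9253620 counted reads in KO and 5227758 to 21998174 in WT. Satb1 itself, which encodes a chromatin organiser, averaged 909.9 ± 87.2 CPM (the read count scaled for library depth and composition) in the KO samples, against 1033 ± 41.4 CPM in the WT samples (SD, n = 4 a group, as for all means below). Its log2 fold change, KO over WT, was -0.18 with an edgeR adjusted p of 0.0582. Which exons are floxed is not given in the sources used here, so a count over the whole gene does not check the deletion. The 11 naive CD4 T cell markers were all expressed in both groups, with Cd3e at 390.3 and 377.0 CPM. The 11 B and plasma cell markers summed to 367 to 420.4 CPM in KO and 451 to 491 CPM in WT, nearly all of it Ighm, the immunoglobulin mu chain (382 CPM in KO, 460.4 CPM in WT, called lower). Ms4a1 of that list was near 0, with 3 reads over the KO libraries and 0 over the WT libraries. The 7 NK cell markers summed to 58.7 to 66.5 CPM in KO and 66.6 to 79.9 CPM in WT, and 1 of them, Klrd1, was called lower. Of 7 markers of activated or regulatory T cells, with summed levels of 129 to 189 CPM in KO and 86.0 to 90.7 CPM in WT, Foxp3 was called higher (93.4 CPM in KO, 8.41 CPM in WT) and Cd44 lower. The part of such cells in the results below was not tested. In bulk samples, fewer cells of a type and less RNA per cell cannot be told apart.

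Heat shock factors switch on cytosolic chaperones when proteins misfold in the cytosol and nucleus, and the induction is rapid. In the ER, the sensors IRE1, PERK and ATF6 answer misfolded proteins by raising chaperones, degradation factors and the transcription factors XBP1, ATF4 and CHOP. ATF4 is also the effector of the integrated stress response, in which phosphorylation of the initiation factor eIF2 lowers general translation. T cells engage these pathways when they leave rest and begin to grow and secrete cytokines.

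Promoter sequences were searched because the groups are defined in textbooks by shared DNA elements as well as by location. RefSeq promoter windows, from 250 bases before to 50 bases after an annotated gene start (build GRCm38.p6), were present for 28 of the 33 genes. Windows for Hspa8, Hsp90aa1, Hsp90ab1, Hyou1 and Manf were not used here. A heat shock element of 3 alternating units, GAA, TTC and GAA with 2 free bases between neighbours, searched on both strands, occurred in 0.603% of all 32851 windows and in those of Hsph1, Hspd1 and Hspe1. Hspa1a, Hspa1b, Dnaja1 and Asns had only the shorter pair GAANNTTC, present in 7.86% of all windows and contained within the longer element. The stretches below show the clearest of these, each written 5′ to 3′ on the strand of its gene, with the matched bases in capitals.
Hsph1, chr5:149636283-149636305: gcagaTTCTGGAAAGTTCtcctc
Hspe1, chr1:55088054-55088081: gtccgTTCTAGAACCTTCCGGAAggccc
Hspa1a, chr17:34972238-34972275: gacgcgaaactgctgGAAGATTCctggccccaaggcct
Hspa1b, chr17:34959320-34959357: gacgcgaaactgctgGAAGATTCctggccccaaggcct
The Hspe1 stretch holds 2 overlapping matches and lies between the RefSeq starts of Hspe1 and Hspd1, which are transcribed away from each other, so it is in the windows of both. The Hspa1a and Hspa1b stretches are identical, as the 2 genes are near copies. The Hsph1 match starts 15 bases downstream of a RefSeq start.

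The ER stress element, CCAAT and CCACG with 9 free bases between them on either strand, occurred in 0.119% of all windows. It was found in 7 of the 12 ER chaperone genes with a window (Calr, Canx, Creld2, Dnajc3, Hsp90b1, Hspa5 and Pdia6) and in no gene of the other groups. A related form, ATTGG and CCACG with 1 free base between them, occurred in 0.0365% of all windows and in those of Dnajb11 and Herpud1. Neither the unfolded protein response element TGACGTGG nor the amino acid response element TGATGNAAT matched the window of any of the 28 genes, against 0.676% and 0.965% of all windows. Hspa5, Hsp90b1 and Calr are shown because the first is the usual readout of ER stress, the second was called in this comparison and the third was not.
Hspa5, chr2:34772020-34772048: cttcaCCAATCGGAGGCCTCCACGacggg
Hsp90b1, chr10:86705518-86705671: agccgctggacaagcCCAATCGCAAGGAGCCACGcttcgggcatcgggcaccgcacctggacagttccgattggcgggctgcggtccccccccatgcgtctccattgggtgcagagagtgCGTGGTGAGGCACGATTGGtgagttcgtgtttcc
Calr, chr8:84847060-84847108: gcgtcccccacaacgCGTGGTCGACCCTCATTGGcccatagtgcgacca
Hsp90b1 has a match on each strand, and that of Calr is on the opposite strand. A match is a description of the letters and not evidence that a factor binds there.

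Across all 31 tested genes, 4 passed an adjusted p of 0.05 in edgeR, of which 3 were higher in KO (Atf4, Hspd1 and Hsp90b1) and 1 was lower (Edem1). That is 12.9% of the 31, beside 6.39% of the 11772 genes tested, where 3.98% were higher and 2.41% were lower. Log2 fold changes (KO over WT) were positive for 24 and negative for 7, and 49.9% of all tested genes had a positive one. Their median was 0.09, against a median of all tested genes within 0.01 of 0. The 2 groups of samples did not overlap for 6 of the 31 genes, beside 11.1% of all tested genes. These 6 were Hsph1, Hspd1, Hsp90b1, Edem1, Ddit3 and Atf4. An unadjusted edgeR p under 0.05 was found for 9 of the 31, beside 18.0% of all tested genes. All 4 called changes were under 1.3-fold.

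**Figure D1:**
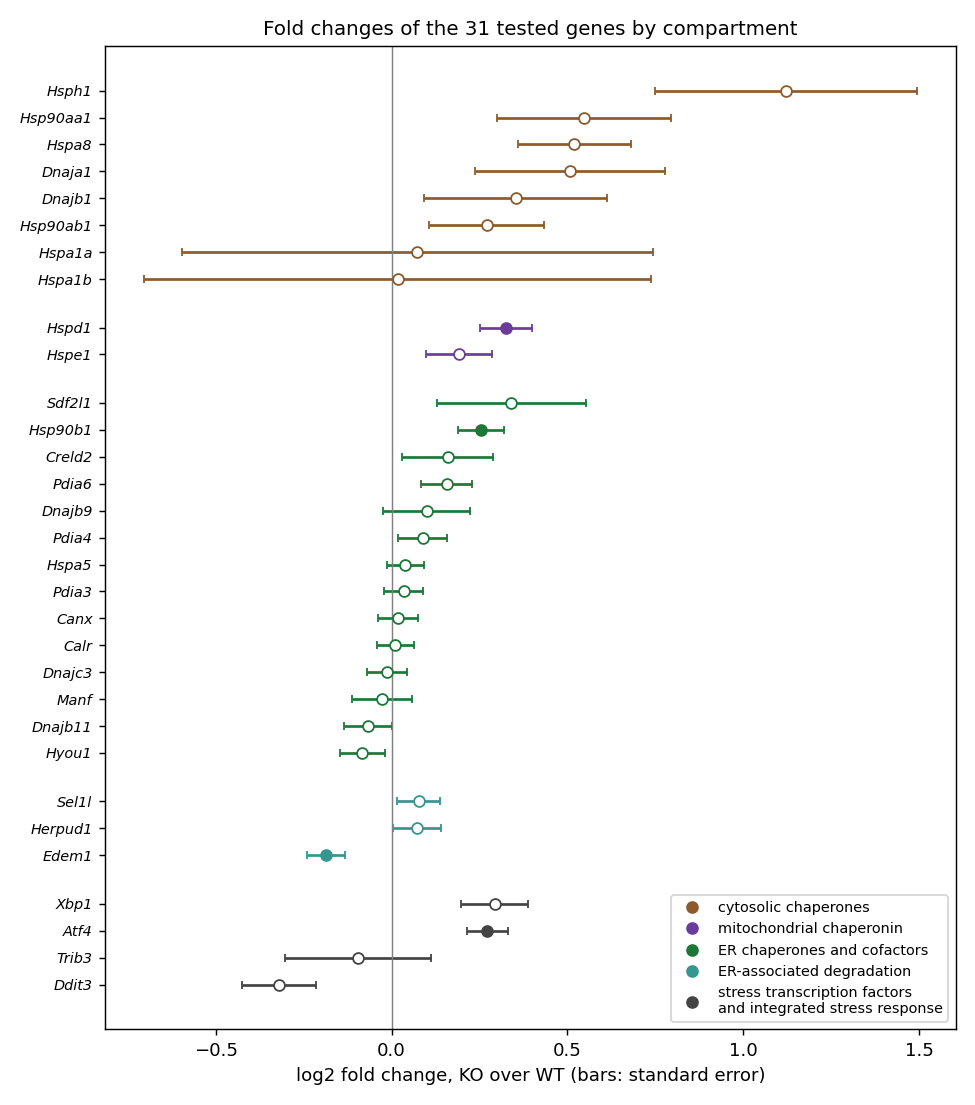
Log2 fold change, KO over WT, of the 31 tested genes (points, with bars of 1 standard error), coloured by compartment. Filled points passed an edgeR adjusted p of 0.05. The 8 cytosolic chaperones lie from 0.02 to 1.12 with wide bars and are all open, whereas the 14 ER chaperones lie from -0.08 to 0.34 and only Hsp90b1 is filled.

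Per kilobase of annotated exons, with all exons of a gene merged, the genes spanned a wide range of levels. Hsp90ab1 was at 515 CPM per kb in KO and 427 CPM per kb in WT, Hspa8 at 219 and 153, Calr at 131 and 130.02, and Pdia3 at 108 and 105. Atf4 followed with 92.6 CPM per kb in KO and 76.6 CPM per kb in WT, then Hspa5 with 73.5 and 71.5 and Hsp90b1 with 63.9 and 53.5. At the low end stood Hspa1b with 6.22 CPM per kb in KO and 6.78 CPM per kb in WT, Trib3 with 2.99 and 3.11, and Hspa1a with 0.450 and 0.492. The constitutive Hsp70 and Hsp90 genes were thus far above their stress-inducible counterparts in both groups, as levels per length, with the shared sequence given below as a limit on Hspa1a, Hspa1b, Hspa8 and Hsp90aa1.

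In the robust edgeR fit all 8 cytosolic chaperone genes had a positive log2 fold change, and none passed the adjusted threshold. The median was 0.43 and the range 0.02 to 1.12. The lowest values, of Hspa1b and Hspa1a, were positive in sign only, as mean CPM of both was lower in KO. DESeq2 gave a positive log2 fold change for 6 of the 8. Unadjusted p was under 0.05 for 2 of them, Hsph1 and Hspa8. Without robust estimation, edgeR called 3 on the same 8 libraries: Hspa8 (adjusted p = 0.00470), Hsph1 (adjusted p = 0.00393) and Hsp90aa1 (adjusted p = 0.0398). DESeq2 called 1 (Hspa8), and limma-voom and limma-trend each called the same 4 (Hspa8, Hsph1, Hsp90aa1 and Dnaja1), all higher in KO. Of all genes tested in each setting, non-robust edgeR called 5.88%, DESeq2 6.02%, limma-voom 6.44% and limma-trend 4.14%. Within each group these genes varied between libraries more than most. Their median coefficient of variation was 17.8% in KO and 36.7% in WT, against 8.39% and 7.83% over all tested genes with at least 5 CPM. Sample_2907_KO was the highest KO library for 7 of the 8 genes and Sample_2911_WT the highest WT library for all 8. Summed over the 8 genes, levels were 2798 to 3953 CPM in KO and 2119 to 3277 CPM in WT. The 3277 CPM belonged to Sample_2911_WT and the next highest WT library stood at 2215 CPM.

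**Figure D2:**
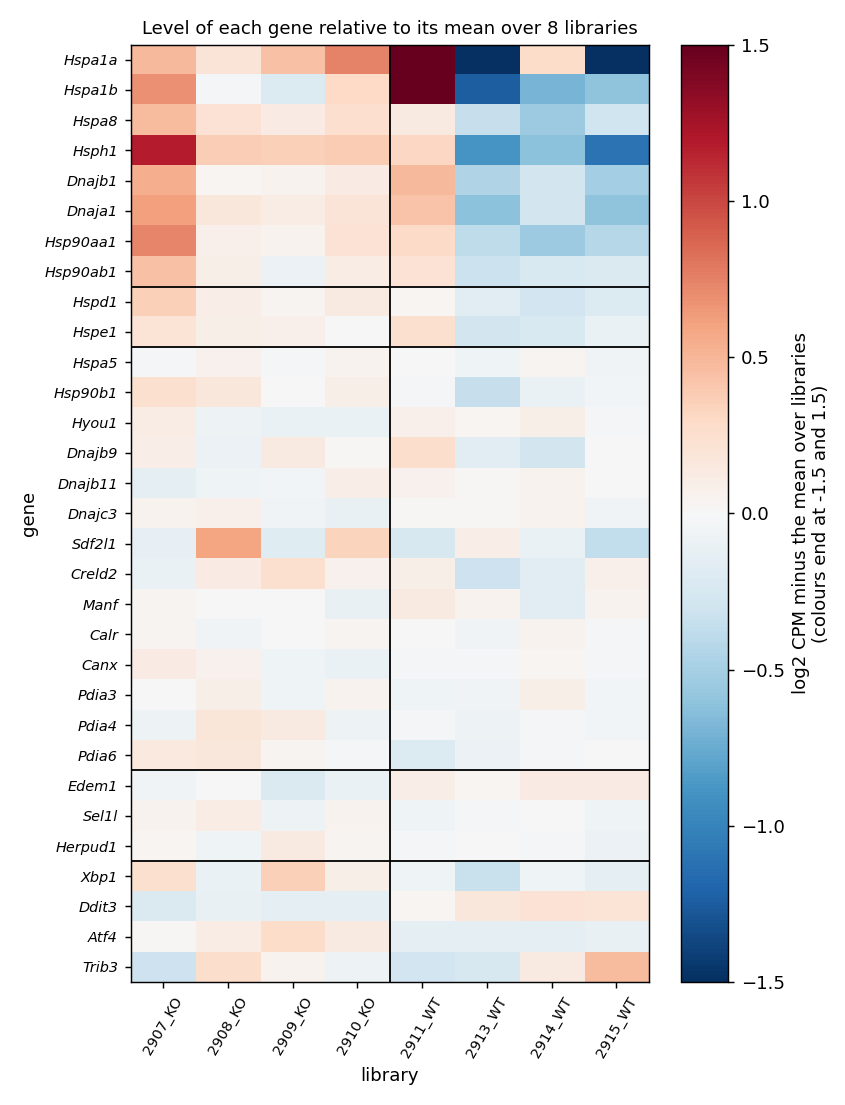
Level of each of the 31 tested genes in each library as log2 CPM minus its mean over the 8 libraries (red above, blue below, colours saturating at the ends of the bar), with KO libraries left of WT libraries and lines between compartments. The cytosolic block at the top is reddest in Sample_2907_KO and Sample_2911_WT, and the ER block is pale in all libraries.

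Hspa8 encodes the constitutive cytosolic Hsp70 protein. It had 1087, 905, 854 and 929 CPM in KO, against 859, 614, 534 and 633 CPM in WT. The highest WT library, Sample_2911_WT, lay just above the lowest KO library, and the other 3 WT libraries lay below every KO library. The log2 fold change was 0.52 (SE 0.16, edgeR adjusted p = 0.147). Of the 75-base windows of its transcript, 40.9% also occur in 1 or more of 11 other annotated genes, and how such reads were assigned is not given in the sources used here.

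Hsph1, an Hsp110 protein that recharges Hsp70 with ATP, had the largest log2 fold change of the 31 genes. Its levels were 249, 141, 141 and 143 CPM in KO, against 136, 59.7, 71.7 and 51.1 CPM in WT. The groups did not overlap, but the highest KO and highest WT libraries stood well apart from the rest of their groups. The log2 fold change of 1.12 had an SE of 0.37 and an edgeR adjusted p of 0.177.

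Hspa1a and Hspa1b encode the stress-inducible Hsp70. Hspa1b had 23.8, 14.7, 12.9 and 18.3 CPM in KO, against 50.8, 6.31, 9.18 and 9.78 CPM in WT. Sample_2911_WT was above all KO libraries and the other 3 WT libraries were below all of them. Hspa1a was nearly silent, with 1.34, 1.10, 1.30 and 1.61 CPM in KO and 4.25, 0.180, 1.16 and 0.260 CPM in WT, again with Sample_2911_WT the highest. Mean CPM was lower in KO for both, at 17.4 against 19.0 CPM for Hspa1b and 1.34 against 1.46 CPM for Hspa1a. These differences were smaller than the spread between libraries. The edgeR log2 fold changes had the opposite sign, at 0.02 for Hspa1b and 0.07 for Hspa1a (edgeR adjusted p 0.995 and 0.975). Of the 75-base windows, 54.2% of Hspa1a and 55.8% of Hspa1b occur in the other or in Hspa1l, so reads may be split between them.

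Dnajb1 and Dnaja1 encode J-domain cochaperones that deliver clients to Hsp70. Dnajb1 had 233, 163, 165 and 173 CPM in KO and 223, 117, 131 and 112 CPM in WT. Sample_2911_WT came second only to Sample_2907_KO, and the other 3 WT libraries were below all KO libraries. Its log2 fold change was 0.35 (SE 0.26, edgeR adjusted p = 0.570). That of Dnaja1 was 0.51 (edgeR adjusted p = 0.411), from 178 to 255 CPM in KO and 108 to 222 CPM in WT. Exons of Dnaja1 overlap Smu1 on the opposite strand (89.4 CPM in KO, 89.4 CPM in WT), so shared reads cannot be assigned. Of the 75-base windows of Dnaja1, 16.6% also occur in 3 other genes.

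Of the Hsp90 pair, Hsp90aa1 is the stress-inducible isoform and Hsp90ab1 the constitutive one. Hsp90aa1 had 219, 139, 137 and 154 CPM in KO, against 161, 102, 90.6 and 98.6 CPM in WT. Hsp90ab1 had 1885, 1477, 1309 and 1501 CPM in KO, against 1621, 1114, 1183 and 1202 CPM in WT. For both, Sample_2911_WT exceeded all KO libraries but Sample_2907_KO, and the groups otherwise separated. Log2 fold changes were 0.55 for Hsp90aa1 (SE 0.25, edgeR adjusted p = 0.322) and 0.27 for Hsp90ab1 (SE 0.16, adjusted p = 0.475). Hsp90aa1 was at 41.3 CPM per kb in KO and 28.7 CPM per kb in WT, and 53.1% of its windows also occur in 3 other genes.

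**Figure D3:**
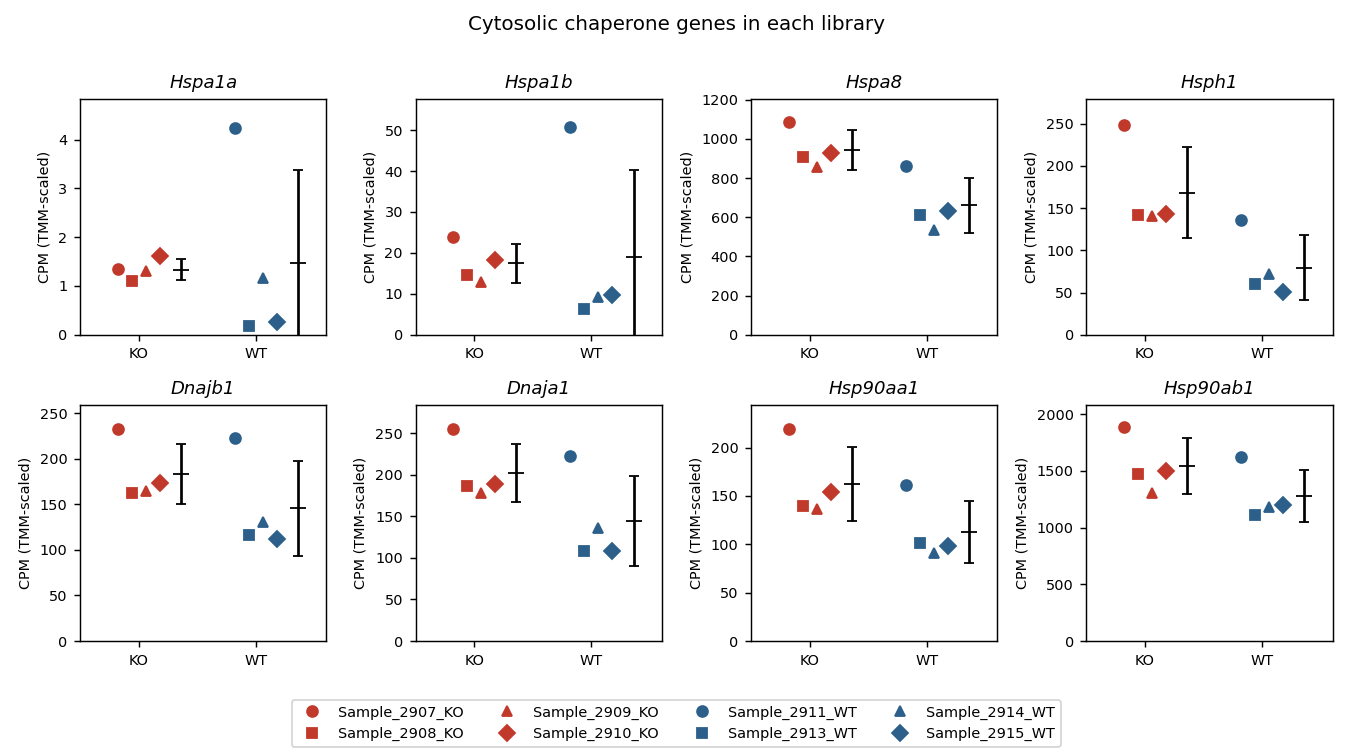
TMM-scaled CPM of the 8 cytosolic chaperone genes in each library (1 symbol a library, KO left of WT, axes from 0, with mean and SD beside each group and the lower end of the bar cut at 0). Sample_2907_KO and Sample_2911_WT stand at the top of their groups in nearly every panel, and without them the KO points lie above the WT points for most genes.

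The number of these genes called also changed with the libraries kept. With Sample_2911_WT left out, 4 of the 8 passed in edgeR, all higher in KO: Hspa8 (log2 fold change 0.67, adjusted p = 1.68e-06), Hspa1b (0.99, adjusted p = 0.00151), Dnaja1 (0.77, adjusted p = 0.0427) and Dnajb1 (0.61, adjusted p = 0.0405). The median of the 8 was then 0.76. Without Sample_2907_KO it was 0.29, none was called and the log2 fold change of Hspa1b was negative. The count of all 31 genes called was 8 without Sample_2911_WT and 2 without Sample_2907_KO. Of all genes tested, 6.22% were called without Sample_2911_WT and 4.72% without Sample_2907_KO. Sample_2911_WT was the shallowest library (5227758 reads) and also had the highest summed level of 12 myeloid markers, at 30.1 CPM, of which Lyz2 made 25.3. The range was 10.2 to 16.4 CPM in KO and 1.98 to 16.2 CPM in the other WT libraries, and S100a8 and S100a9 were at 0 throughout. Immediate early genes respond quickly to stimulation and handling. Summed levels of 23 of them were 2154 to 2788 CPM in KO and 2234 to 2596 CPM in WT. The 2596 CPM was in Sample_2911_WT, close to the 2580 CPM of Sample_2913_WT, and the 2788 CPM was in Sample_2910_KO. Of the 20 immediate early genes that were tested, 1 was called (5%, beside 6.39% of all tested genes), Klf6, higher in KO by a log2 fold change of 0.65. Their part in the chaperone levels was not tested.

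**Figure D4:**
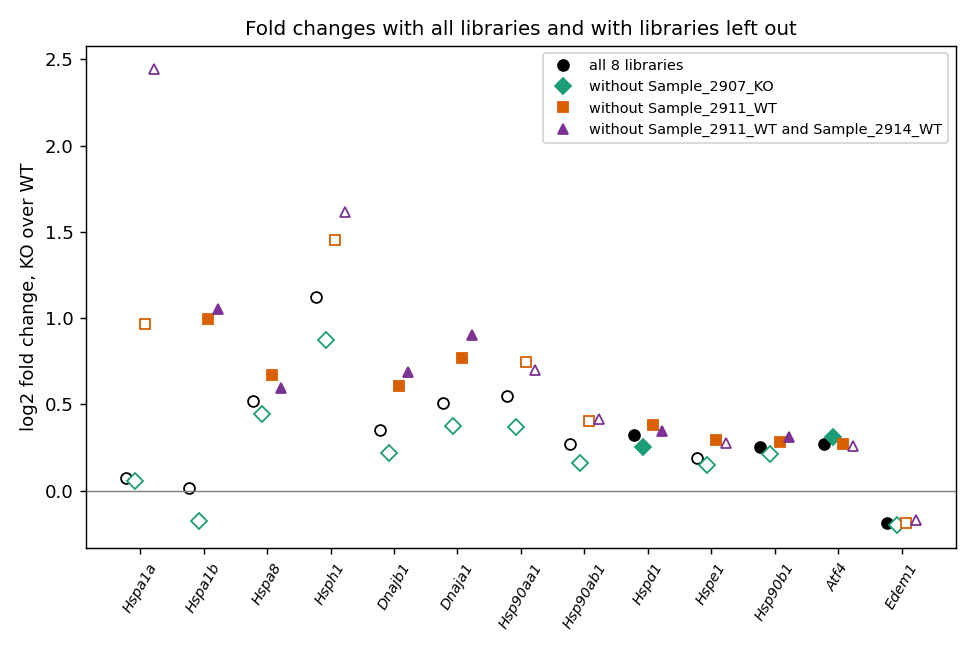
Log2 fold changes, KO over WT, of the cytosolic and mitochondrial chaperones, Hsp90b1, Atf4 and Edem1 with all 8 libraries (circles) and with libraries left out (diamonds, squares and triangles). Filled symbols passed an edgeR adjusted p of 0.05. The cytosolic genes move up when Sample_2911_WT is left out, Hspa1b by the most among those then called, while Hspd1 stays filled in all 4 positions.

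Among other cytosolic chaperone, cochaperone and heat shock factor genes, 37 were tested and 4 were called, all higher in KO. That is 10.8%, beside 6.39% of all tested genes called in either direction and 3.98% called higher. Ahsa1, which stimulates the Hsp90 ATPase, averaged 84.5 ± 5.71 CPM in KO and 67.6 ± 4.90 CPM in WT (log2 fold change 0.32, edgeR adjusted p = 0.00435). Fkbp4, an Hsp90 immunophilin, averaged 129 ± 7.85 CPM in KO against 99.6 ± 14.6 CPM in WT (0.38, adjusted p = 0.00442). For St13, an Hsp70 cochaperone, the log2 fold change was 0.22 (adjusted p = 0.0426). Each of these 3 genes had all KO libraries above all WT libraries, and 11.1% of all tested genes had groups without overlap. Hsf1, the master heat shock factor, averaged 104 CPM in KO against 93.5 CPM in WT (0.16, adjusted p = 0.221).

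Hspd1 and Hspe1 encode the Hsp60 chamber and the Hsp10 lid of the mitochondrial chaperonin. Hspd1 (chr1:55077835-55088243, GRCm38) was higher in KO. It had 130.3, 109, 105 and 112 CPM in KO, against 104, 91.0, 83.4 and 88.5 CPM in WT. All KO libraries lay above all WT libraries, although the lowest KO and highest WT libraries nearly touched. The log2 fold change was 0.32 (SE 0.074, edgeR adjusted p = 0.00498). It was called under all 18 alternatives tried, with an adjusted p of at most 0.0484.

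Hspe1 (chr1:55088132-55091307) had 54.5, 49.99, 49.6 and 47.1 CPM in KO, against 55.4, 38.7, 40.2 and 43.8 CPM in WT. Sample_2911_WT was the highest of all 8 libraries and the other 3 WT libraries were below every KO library. Its log2 fold change was 0.19 (SE 0.095, edgeR adjusted p = 0.284), and 0.29 without Sample_2911_WT (adjusted p = 0.0497). Annotated exons of the 2 genes overlap on opposite strands, and the library kit does not keep strand, so reads there cannot be told apart. Of Hspd1, 33.7% of the windows also occur in 4 other genes. None of 17 other mitochondrial chaperone and protease genes was called by edgeR, DESeq2 or limma, and 2 had an unadjusted p under 0.05 in edgeR.

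Of the 14 ER chaperones and cofactors, 1 was called (7.14%, beside 6.39% of all tested genes). Of their log2 fold changes, 10 were positive and the median was 0.04. Hspa5 encodes BiP, the Hsp70 of the ER and the most used reporter of the unfolded protein response. It had 303, 321, 299.9 and 319 CPM in KO, against 306, 293, 316 and 295 CPM in WT. The 2 sets of values interleaved, and the log2 fold change was 0.04 (SE 0.053, edgeR adjusted p = 0.777). Calr, the lectin chaperone calreticulin, had 387, 361, 377 and 386 CPM in KO, against 376, 364, 391 and 368 CPM in WT. Its log2 fold change was 0.01 (SE 0.052, adjusted p = 0.953). The highest library was a WT one and the lowest a KO one, and the ranges covered each other.

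Hsp90b1 (chr10:86690209-86705509), which encodes the ER Hsp90 Grp94, a chaperone of integrins and Toll-like receptors, was the only ER chaperone called higher in KO. It had 278, 265, 237 and 251 CPM in KO, against 231, 185, 219 and 229 CPM in WT. The groups did not overlap, with 237 CPM the lowest in KO and 231 CPM the highest in WT. The log2 fold change was 0.25 (SE 0.066, edgeR adjusted p = 0.0159). The call was lost without Sample_2907_KO, without Sample_2913_WT and when all libraries were thinned to equal depth, with an adjusted p of up to 0.0978.

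None of the other 11 ER genes passed the threshold. Pdia6, a disulfide isomerase, came nearest (log2 fold change 0.16, edgeR adjusted p = 0.232), with 75.3 ± 4.56 CPM in KO against 67.2 ± 4.08 CPM in WT. The isomerases Pdia3 and Pdia4 had log2 fold changes of 0.04 and 0.09, and calnexin, encoded by Canx, had 0.02. Among the J-domain cochaperones of BiP, Dnajb9 had 0.10, Dnajb11 had -0.07 and Dnajc3 had -0.01. Hyou1, the ER member of the Hsp110 family, had -0.08 and Manf, a secreted BiP cofactor, had -0.03. Exons of Manf overlap Rbm15b (88.5 CPM in KO, 91.9 CPM in WT) and Dcaf1 (114 CPM in KO, 118 CPM in WT), so shared reads cannot be assigned. Sdf2l1 and Creld2, both strongly induced in ER stress, had 0.34 and 0.16, and Sdf2l1 was also the lowest of the 14 per length, at 6.58 CPM per kb in KO and 5.23 CPM per kb in WT. Variation between libraries was small, with a median coefficient of variation of 6.80% in KO and 4.29% in WT over the 14 genes. None of 38 other ER folding, translocation and glycosylation genes was called by edgeR, DESeq2 or limma-trend, limma-voom called 1 (Stt3b, lower in KO), and 4 had an unadjusted p under 0.05 in edgeR.

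**Figure D5:**
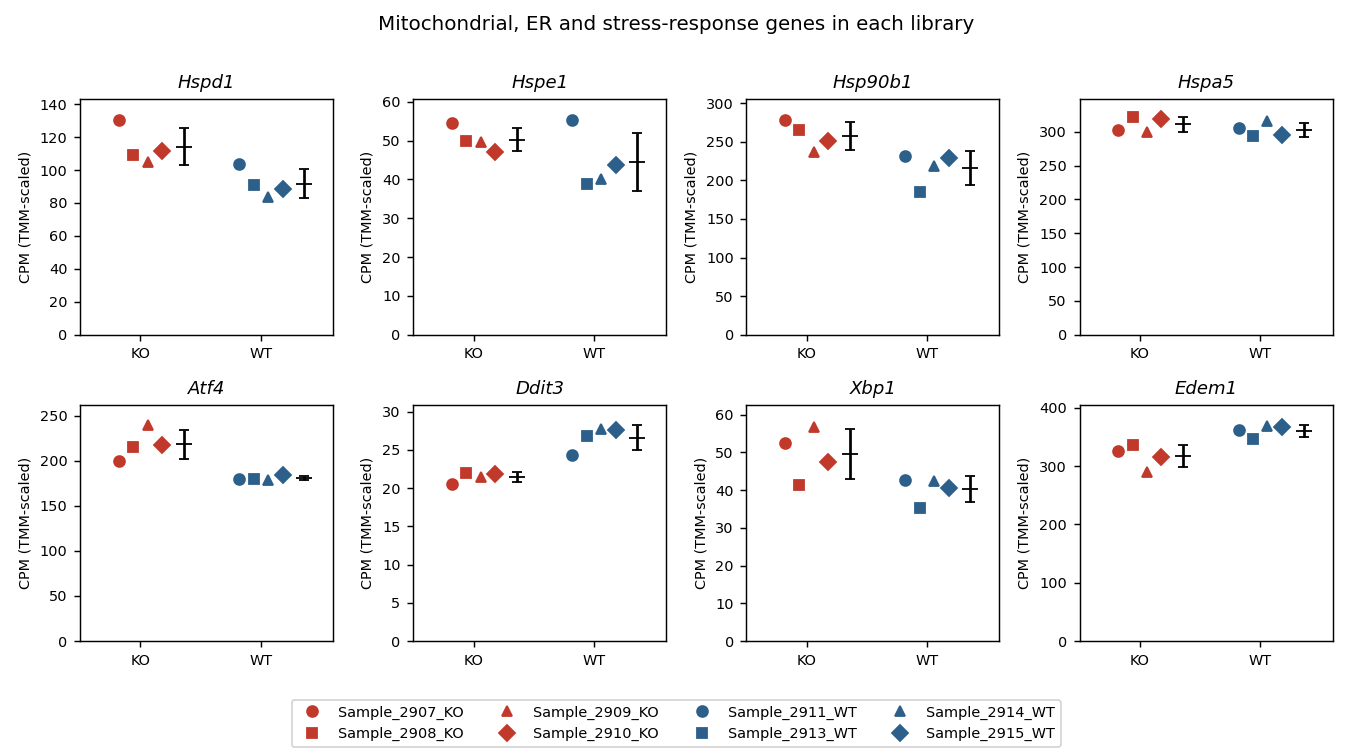
TMM-scaled CPM of 8 genes outside the cytosol in each library (1 symbol a library, KO left of WT, axes from 0, mean and SD beside each group). KO and WT points are fully apart for Hspd1, Hsp90b1, Atf4, Ddit3 and Edem1, overlap for Xbp1 and interleave for Hspa5, and for Hspe1 Sample_2911_WT lies among the KO points.

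Edem1 (chr6:108828641-108859356), which hands misfolded glycoproteins to ER-associated degradation, was the only member called lower in KO by the robust edgeR fit. It had 326, 336, 291 and 316 CPM in KO, against 361, 346, 369 and 367 CPM in WT. Every KO library was below every WT library. The log2 fold change was -0.19 (SE 0.055, edgeR adjusted p = 0.0357). The call held in 8 of 18 alternatives, and the adjusted p reached 0.225 among the others. It was lost, for example, without any 1 of Sample_2907_KO, Sample_2909_KO, Sample_2910_KO, Sample_2911_WT, Sample_2914_WT or Sample_2915_WT, and the log2 fold change stayed between -0.22 and -0.15 in all 18.

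Sel1l, the scaffold of the HRD1 ubiquitin ligase, averaged 117 ± 6.20 CPM in KO and 111 ± 2.52 CPM in WT (log2 fold change 0.08, edgeR adjusted p = 0.563). Herpud1, which supports assembly of that complex, averaged 78.6 ± 4.30 CPM in KO against 74.8 ± 1.86 CPM in WT (0.07, adjusted p = 0.637). Among 24 other tested genes of ER-associated degradation, 1 was called (4.17%, beside 6.39% of all tested genes). It was Syvn1, which encodes the HRD1 ligase itself, with 83.8, 81.3, 78.9 and 88.1 CPM in KO and 69.7, 69.6, 65.0 and 65.8 CPM in WT, without overlap (0.30, adjusted p = 0.00421).

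Atf4 (chr15:80255184-80257541) had the lowest adjusted p of the 31 genes. It had 200.2, 215, 239.6 and 218 CPM in KO, against 179, 179.9, 179 and 184 CPM in WT. The WT libraries were close together, and the lowest KO library lay above them all. The log2 fold change was 0.27 (SE 0.058, edgeR adjusted p = 0.00238). It was called in 17 of 18 alternatives, and not without Sample_2911_WT and Sample_2914_WT together (adjusted p = 0.0568). ATF4 is controlled largely at translation, which these data do not measure.

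Ddit3 encodes CHOP, a pro-apoptotic factor downstream of ATF4. It had 20.5, 22.0, 21.5 and 21.8 CPM in KO, against 24.3, 26.9, 27.7 and 27.6 CPM in WT. The groups did not overlap and lay in the opposite order to those of Atf4, but the gene was not called (log2 fold change -0.32, SE 0.10, edgeR adjusted p = 0.0632). Limma-voom with sample weights did call it lower in KO (adjusted p = 0.0496). Ddit3 overlaps Mars on the opposite strand, which averaged 83.3 CPM in KO and 76.4 CPM in WT, so reads in the shared part cannot be assigned. Another annotated entry named Ddit3 overlaps it on the same strand, and 3.46% of its 75-base windows also occur in that entry.

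Xbp1, whose mRNA is spliced by IRE1 to give the active factor, had 52.5, 41.4, 56.8 and 47.4 CPM in KO, against 42.7, 35.3, 42.5 and 40.5 CPM in WT. The ranges overlapped through Sample_2908_KO, and the gene was not called (log2 fold change 0.29, SE 0.095, edgeR adjusted p = 0.0632). Gene counts do not separate its spliced and unspliced forms. It was called without Sample_2908_KO (0.37, adjusted p = 0.0101), in thinned libraries (0.40, adjusted p = 0.0193) and without the count filter (adjusted p = 0.0387).

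Of the ATF4 targets among the members, Trib3, a pseudokinase, was weakly expressed with 6.36 ± 1.07 CPM in KO against 6.61 ± 1.68 CPM in WT (log2 fold change -0.10, edgeR adjusted p = 0.871). Asns, asparagine synthetase, had 2 reads over the KO libraries and 5 over the WT libraries, a ratio of 0.517 with an exact 95% interval of 0.0493 to 3.16 (exact two-sided permutation test, p = 1). Chac1, which degrades glutathione, had 1 read in KO and 0 in WT. The level that 3 reads would give in the pooled libraries was 0.0876 CPM in KO and 0.0677 CPM in WT. A difference in either gene was not detectable at this depth. Intervals and floors cover counting error only.

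Among 17 sensors and regulators of the unfolded protein response, a list that also holds Xbp1, 2 were called, both higher in KO. That is 11.8%, beside 6.39% of all tested genes called in either direction and 3.98% called higher. Ern1, which encodes IRE1, had 20.9, 22.3, 22.8 and 26.1 CPM in KO, against 18.3, 17.5, 17.4 and 14.8 CPM in WT (log2 fold change 0.44, edgeR adjusted p = 0.0190). The groups did not overlap. Nfya, a subunit of the NF-Y factor that binds CCAAT boxes, had 0.23 (adjusted p = 0.0413), and its groups overlapped. Atf6 had 0.22 (adjusted p = 0.499), and Eif2ak3, which encodes PERK, had 0.08 (adjusted p = 0.697).

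Of 38 other integrated stress response and ATF4 target genes, 3 were called, all higher in KO. That is 7.89%, beside 6.39% of all tested genes called in either direction and 3.98% called higher. Eif2ak2, the RNA-activated eIF2 kinase, averaged 47.6 ± 5.15 CPM in KO and 35.3 ± 3.52 CPM in WT (log2 fold change 0.42, edgeR adjusted p = 0.00390). Pck2, the mitochondrial phosphoenolpyruvate carboxykinase, averaged 39.4 ± 4.45 CPM in KO against 29.3 ± 4.18 CPM in WT (0.42, adjusted p = 0.0105). Aldh18a1, of proline synthesis, had 0.27 (adjusted p = 0.0213). Over all 170 tested pathway genes outside the members, 10 were higher and 0 lower in edgeR and in limma-trend, and 32 had an unadjusted p under 0.05 in edgeR. DESeq2 called 10 higher and 1 lower, and limma-voom 12 higher and 1 lower. The 5.88% called by edgeR, all higher, is near the 6.39% of all tested genes called in either direction. Of all tested genes, 3.98% were called higher and 2.41% lower.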

How the data were processed

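The authors deposited a table of whole-number read counts per gene and a table of normalized signal, in which each value is a count divided by 1 size factor per sample. Libraries were made with an unstranded kit and read as single 75-base reads, per the labels' protocols. Per the submitters' processing notes, the genome was mm10 and the tools named are DESeq2 1.22.2, R 3.5.3, CASAVA 1.8.2 and FastQC. Which aligner, counter and annotation were used is not given in the sources used here. The genes and the pathway lists were chosen with earlier results of these data known. Each member is accounted for, a fixed set is given per library, and each called pathway gene is named, except 1 that is not reported here.

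The deposited counts were tested with edgeR 4.0.16 in R 4.3.3 (robust quasi-likelihood F test, TMM, filterByExpr, 4 KO against 4 WT), and p-values were Benjamini-Hochberg adjusted over 11772 genes with a threshold of 0.05. Levels are TMM-scaled CPM. A standard error (SE) is on the log2 scale. Positions are from GENCODE M21 (GRCm38). Shared 75-base windows were counted over its transcripts. Members under the filter were compared by pooled reads, with an exact permutation test. Replicates within a group differed beyond sampling noise. Steps were tested on simulated counts. Alternatives were DESeq2 1.42.0, limma 3.58.1 (voom with sample weights, and trend on the deposited normalized signal, as log2 of the value plus 1), RLE factors, library size only, other count filters, a non-robust fit, thinned libraries, each library left out, and Sample_2911_WT and Sample_2914_WT left out together.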

Additional observations from a re-analysis of the deposited data

Results flagged for a closer look

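In 11 cases a library stood apart from the other 3 of its group by a Dixon gap test. Chance meets that test in about 1 of 20 groups. Genes that rise together in 1 library are not separate events, so the 11 cases were not weighed against that rate. Among the cytosolic chaperones, Sample_2907_KO stood apart for Hsph1 at 248.6 CPM (others 141.0 to 142.8), Dnajb1 at 232.8 CPM (162.9 to 172.9) and Dnaja1 at 254.5 CPM (178.3 to 188.8). Sample_2911_WT stood apart for Hspa1b at 50.8 CPM (6.31 to 9.78) and Hsp90aa1 at 161.0 CPM (90.6 to 101.7). Of the ER genes, Hyou1 was at 127.6 CPM in Sample_2907_KO (110.1 to 112.7) and Pdia3 at 353.3 CPM in Sample_2914_WT (319.0 to 322.9). Atf4 was at 184.3 CPM in Sample_2915_WT, against 179.0 to 179.9 CPM in the other WT libraries, so the gap is small in size. The remaining 3 rest on single-digit reads: Asns at 0.268 CPM in Sample_2910_KO and 0.223 CPM in Sample_2914_WT, and Chac1 at 0.108 CPM in Sample_2909_KO, with the other libraries of those groups at 0. A lone library above 0 has the largest possible gap whatever its level, so the rate of 1 of 20 does not apply to these.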

How the results depend on the processing

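With Sample_2911_WT and Sample_2914_WT left out together, 481 genes were called, and leaving out 1 library at a time gave 562 to 836. The count of members called was 7 with limma-trend, 9 with limma-voom and 2 to 8 with 1 library left out. Of all genes tested, the shares called were 4.14%, 6.44% and 4.72% to 7.06%, in the same order. Pathway genes called outside the members numbered 4 without Sample_2911_WT and Sample_2914_WT, where 3.94% of all tested genes were called. They numbered 6 to 11 with 1 library left out. Signs turned only for 9 members, none of them called. DESeq2 gave -0.058 for Hspa1a and -0.12 for Hspa1b. Thinned libraries gave -0.24 for Hspa1b, -0.046 for Dnajb9, 0.0029 for Dnajb11, -0.014 for Calr, -0.0018 for Canx and 0.0035 for Trib3. Library size only gave -0.0038 for Calr, and Dnajc3 was 0.013 without Sample_2911_WT and Sample_2914_WT. With 1 library left out, the ranges were -0.34 to 0.96 for Hspa1a, -0.28 to 0.99 for Hspa1b, -0.042 to 0.020 for Dnajc3, -0.096 to 0.0045 for Manf, -0.0053 to 0.031 for Calr, -0.022 to 0.052 for Canx and -0.20 to 0.069 for Trib3. The causes were not tested. No paired analysis was possible because no sample number is shared between KO and WT. Depth limits Asns, Chac1 and Hspa1a most.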
